A study of Rattus norvegicus with 7 samples.

Results

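Cytosolic ribosomal proteins are the protein part of the ribosomes that translate nuclear mRNAs in the cytoplasm. In the ICR/Ihr lens, 88 genes of this class were measured above the floor of the arrays, 61 of the large subunit and 27 of the small subunit, among 5168 tested genes. Members were found by symbol. A gene entered when its symbol was Rpl or Rps with a number, or Rplp0, Rplp1, Rplp2 or Rpsa, when its transcript cluster carried no other symbol, and when 1 or more arrays gave it a log2 signal of 5 or higher (the floor). The symbols named 143 genes, of which 55 stayed under the floor on every array.

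The lenses came from male rats of the inbred strain ICR/Ihr, in which cataracts arise spontaneously with age. Total RNA was hybridised to 7 arrays, 1 for each age, without any agent. The labels place 2 and 4 weeks of age at no cataracts, 8 and 10 weeks at cortical opacity, 12 weeks at posterior subcapsular opacity, and 14 and 18 weeks at nuclear opacity. Stage and age cannot be told apart in this design, every group carries the hereditary cataract background, and no lens of another strain was analysed here. The number of rats or lenses behind an array is not given in the labels, so that a p-value measures only the spread between these arrays. In a whole lens, fewer cells of a type and less RNA per cell cannot be told apart.

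A ribosome has a small subunit, which reads the mRNA, and a large subunit, which joins amino acids. Its proteins are needed in fixed proportion, so their genes are usually expressed together. Lens growth rests on epithelial cells and young fibres that translate large amounts of crystallin, and fibres lose their nuclei and organelles as they mature. Most vertebrate ribosomal protein mRNAs begin with a 5′ terminal oligopyrimidine (TOP) tract, a C at the first base followed by a run of C and T (U in the RNA), which ties their translation to growth signalling through mTORC1 and Larp1.

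The members carried 2 kinds of names. Plain names such as Rps14 belonged to 47 members (32 large, 15 small), and 41 members (29 large, 12 small) had names in l followed by an optional digit, such as Rps20l4, which RefSeq gives to genes named as like a plain one. The l-form genes were short. Their RefSeq span had a median of 565 bases, and 30 of 41 were under 1000 bases, against a median of 3131 bases and 0 of 46 for the plain names. RefSeq lists 85 members as protein coding and Rpl28l1 and Rps26l5 as pseudogenes. Rpl7l1 is counted as l-form by its name, although it is a conserved paralogue of Rpl7 that acts in large subunit assembly. A copy and its parent can be nearly identical in sequence, so that the signal of an l-form gene and that of its plain relative remain uncertain as separate measurements.

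The first bases of the genes were searched for a TOP tract. RefSeq starts (assembly GRCr8) were found for 69 members, 39 plain and 30 l-form. A C at the annotated first base followed by at least 4 bases of C or T, read on the coding strand alone, stood at 15 of 39 plain starts (38.5%), at 2 of 30 l-form starts (6.67%) and at 2.63% of 27457 starts of all genes. Within 10 bases on either side of the start such a run was found in 64.1%, 36.7% and 23.6%. The letters TTCCGG, on either strand of the 300-base promoter window, were present in 51.3% of plain, 16.7% of l-form and 15.8% of all promoters, and can overlap the TOP run. TATAAA, on either strand, was present in 12.8%, 20% and 14.3%. The sequences below run from 10 bases before the start to 20 bases after its first base included, 5′ to 3′, with the run of C and T that begins at the start in capitals. They were chosen because these genes carry the results that follow, and because Rpl10a and Rpl10al1 form a plain and l-form pair that both kept a run.
Rps14 (chr18:56498250-56498279, plus strand): ccgtctctctCTTTCCggtggaggagtctg
Rpl10 (chrX:157205840-157205869, plus strand): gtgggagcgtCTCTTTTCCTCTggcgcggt
Rps15 (chr7:10068096-10068125, minus strand): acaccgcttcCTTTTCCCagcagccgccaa
Rps27 (chr2:177964587-177964616, minus strand): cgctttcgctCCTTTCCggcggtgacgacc
Rplp0 (chr12:46718371-46718400, minus strand): caccgcacttCTCTCgccaggcgtcctcat
Rpl10a (chr20:6390523-6390552, plus strand): cttctgccttCTTTTCCggttcccgcagcc
Rpl10al1 (chr6:93086396-93086425, minus strand): aaacaatttgCTTCTTTTCCggttcccaca
Rps20l4 (chr8:95622081-95622110, plus strand): gtttttacgcctcagccatggcatttaaag
Rps19l3 (chr1:85738122-85738151, plus strand): ggtcgcggctgtgcgcggggccacggggtc
Rpl7l1 (chr9:21695708-21695737, plus strand): cagatgcattgtgggaagcctttaactcgt
The last 3 have no run at the annotated start, and a start can be placed differently from the transcript made in the lens.

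Of the 80 standard proteins of the cytosolic ribosome, 49 were tested, 32 of the large and 17 of the small subunit, the latter including Fau and Rack1 under their own names. Another 8 were under the floor. They were Rpl5, which carries 5S rRNA into the large subunit together with Rpl11, Rps6, the target of S6 kinase, and Rpl15, Rpl26, Rpl27a, Rpl28, Rps9 and Rps12. For 13 others, among them Rplp1, Rpl22 and Rps26, the clusters carried several symbols, and 10, among them Rps27a, were not named by a cluster used here. Of the 88 members, 78 reached the floor on all 7 arrays, and 3 did so on 1 array alone, Rps18l5 at 4 weeks, Rpl37a at 8 weeks and Rps27 at 14 weeks. A high value of these 3 on that array was fixed by the floor. Another 2 reached it on 2 arrays alone, Rps26l6 at 4 and 12 weeks and Rpl37al2 at 10 and 12 weeks. Their high values there are bound up with the floor. Rps27, a zinc finger protein of the small subunit, lay just inside with a highest value of 5.02, and Rps15al2 and Rps12 lay just outside with highest values of 4.94 and 4.70.

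Markers of other tissues and some markers of lens cells differed at 2 weeks. Signals of 7 ciliary body and zonule genes, 6 of them above the floor, had a median log2 value of 7.26 at 2 weeks, 6.08 at 4 weeks and 4.08 to 5.44 from 8 weeks on. Those of 5 pigment cell genes had a median of 4.88 at 2 weeks and 2.49 to 3.16 afterwards, and Tyrp1, an enzyme of melanin synthesis, was at 7.62 at 2 weeks and 4.06 at 4 weeks. The median of 8 lens epithelium genes stayed within 6.56 to 6.78, and single genes went different ways. Gja1, a gap junction protein, was at 8.13 at 2 weeks, 6.96 at 4 weeks and 6.42 to 6.80 afterwards. The glucose transporter Slc2a1 was at 9.39 and 9.12 and then at 8.46 to 8.72, and Pax6 also had its high at 2 weeks (7.26). Foxe3, Cdh1 and Aqp1 had their highs at 12 (6.83), 14 (7.36) and 10 weeks (6.65). Krt8 and Krt18 were under the floor. All 5 immune cell markers were under the floor on each array. The 7 named lens fibre genes held medians of 12.2 to 12.6, so that markers of the labelled tissue were bright on every array. They were not level with age. Between nuclear opacity and no cataracts their median difference was -0.30, with 1 of 7 positive and none called. The median of all tested genes was -0.05. The part of these markers' cells in the values at 2 weeks was not tested.

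Median levels of both subunits moved little with age. Relative to the mean of the 2 no-cataract arrays, the median large subunit gene was at -0.06 at 2 weeks, 0.06 at 4 weeks, 0.15 at 8 weeks, 0.00 at 10 weeks, -0.06 at 12 weeks, -0.03 at 14 weeks and 0.08 at 18 weeks on the log2 scale. The median small subunit gene was at -0.14, 0.14, 0.10, 0.03, -0.02, -0.01 and 0.19 at the same ages. The median of all tested genes was at 0.00 at 2 and 4 weeks and at -0.04, -0.10, -0.13, -0.08 and -0.02 from 8 to 18 weeks. With each array centred on its median over the tested genes, the large subunit stood at 0.14, 0.12, 0.083 and 0.10 at 10, 12, 14 and 18 weeks and the small subunit at 0.17, 0.15, 0.10 and 0.22, so the sign of the medians at 12 and 14 weeks depends on the scaling. The members' medians lay above that of all tested genes on every array after 2 weeks, and without rescaling both subunits were high at 4 to 8 weeks, low at 12 to 14 weeks and high again at 18 weeks. With median centring the large subunit was not higher at 18 than at 10 or 12 weeks. Between arrays of a stage these medians had a pooled SD of 0.09 (large) and 0.14 (small). Since every array has its own age, this SD is built from some of the same movements. It therefore gives no separate measure of the spread between replicates, and the movements cannot be judged against it. With 1 array per age, no age can be tested against another.

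**Figure D1:**
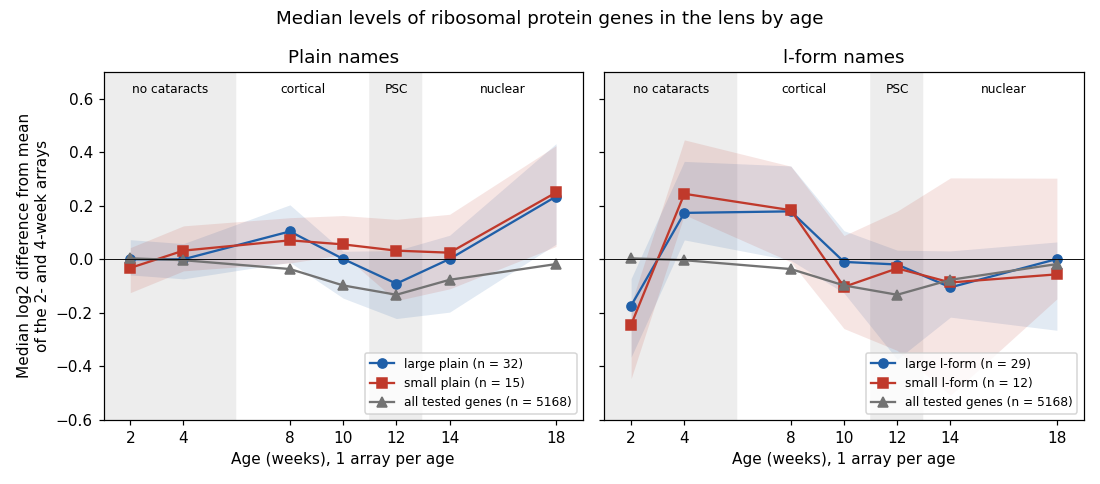
Median log2 difference from the mean of the 2- and 4-week arrays (vertical axis) against age in weeks (horizontal axis, 1 array per age), for large subunit (blue circles) and small subunit (red squares) genes with plain names (left) and l-form names (right), with all 5168 tested genes in grey. Shaded ribbons span the quartiles of the members and grey bands mark alternate stages (PSC, posterior subcapsular). Plain genes reach 0.23 (large) and 0.25 (small) at 18 weeks, and l-form genes rise between 2 and 4 weeks and peak at 4 to 8 weeks.

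The name forms followed different courses. This division was made after the values were seen and is given as a description. From the 2-week to the 4-week array, 38 of 41 l-form members were higher, with a median difference of 0.38 (log2), against 26 of 47 plain members with a median of 0.03 (-0.04 with quantile normalization) and 42.2% of all tested genes with a median of -0.01. All 12 small subunit l-form members were higher at 4 weeks. Of these, Rps18l5 had passed the floor through that array alone and Rps26l6 through that and the 12-week array alone. From 14 to 18 weeks, 42 of 47 plain members were higher, with a median of 0.25, against 27 of 41 l-form members with 0.11 and 61.2% of all tested genes with 0.07. With median centring these medians were 0.16, 0.02 and -0.02, and with dim genes kept 0.24, 0.0020 and 0.00. The 18-week array held the highest value of 27 of 47 plain members (57.4%), of 7 of 41 l-form members (17.1%) and of 22.3% of all tested genes. The 4-week array held the highest value of 18 l-form members and the 8-week array that of 12. The 2-week array, the one with the highest ciliary and pigment signals, held the lowest value of 20 of them and of 11 plain members.

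The division was also described among bright genes and within families. These are parts of the same members on the same arrays and give no separate support. Of the members with a mean log2 value of 9 or more, the 9 l-form genes had a median difference of 0.28 from 2 to 4 weeks and the 29 plain genes one of 0.01. From 4 to 18 weeks these medians were -0.07 (4 of 9 higher) and 0.25 (23 of 29 higher). In 16 pairs of an l-form gene and its plain relative, covering 12 plain genes, the l-form gene had the larger difference from 2 to 4 weeks in 13 and the lower difference from 4 to 18 weeks in 13. Both counts use the 4-week array, so a high value there raises each of them. Rps20 sits in the head of the small subunit. It was at 9.95, 9.95, 9.82, 9.86, 9.71, 9.81 and 10.2 from 2 to 18 weeks, whereas Rps20l4 was at 7.27, 8.56, 7.92, 7.74, 7.22, 7.79 and 7.87. The plain gene was thus near level until 14 weeks and the l-form gene was 2.46-fold higher at 4 than at 2 weeks. Rps19, mutated in human Diamond-Blackfan anaemia, was at 8.46 and 8.79 at 2 and 4 weeks and at 8.98 at 18 weeks, whereas Rps19l3 was at 7.86, 9.03 and 8.34. Rpl10a was at 9.27 at 2 weeks, 9.38 at 4 weeks and 9.15 at 18 weeks, and its l-form Rpl10al1 was at 7.64, 8.29 and 7.41. Both members of that pair went the same way, the l-form over the larger distance. Rpl10 and Rpl10l4 were an exception at the early step, with 0.63 for the plain and 0.20 for the l-form gene.

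**Figure D2:**
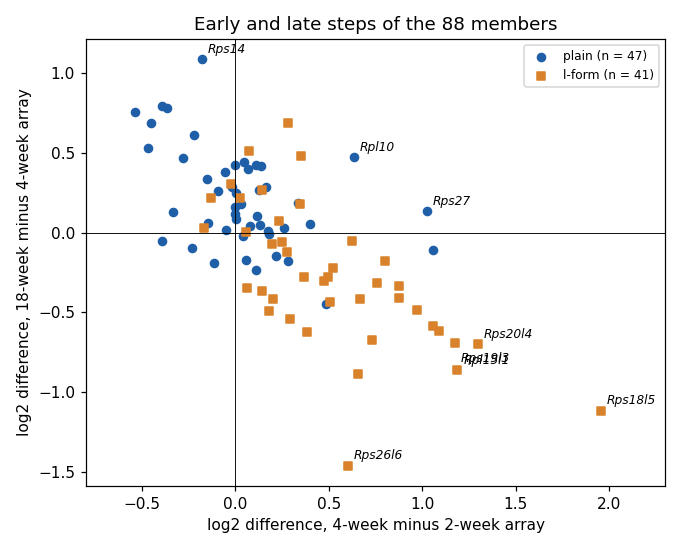
Log2 difference of the 18-week minus the 4-week array (vertical axis) against that of the 4-week minus the 2-week array (horizontal axis) for the 88 members, plain names as blue circles and l-form names as orange squares. Both axes use the 4-week array, so a high value there moves a gene right and down. The l-form genes lie mostly to the right and below 0, with medians of 0.38 and -0.31, and the plain genes have medians of 0.03 and 0.16.

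The members with the widest range over the 7 arrays were mostly l-form genes, at low and at middle signal. The median range was 0.48 for plain, 0.79 for l-form and 0.54 for all tested genes on the log2 scale. Rps26l6 had the widest range of the 88 (1.97), at 4.93, 5.53, 4.85, 3.67, 5.32, 3.56 and 4.08 from 2 to 18 weeks. It was low at 10, 14 and 18 weeks and high at 12 weeks, so the fall was not steady. It reached the floor at 4 and 12 weeks alone. Rps18l5 (range 1.95) was at 3.35 at 2 weeks, 5.30 at 4 weeks and 3.44 to 4.27 afterwards, and reached the floor on the 4-week array alone. Rps27 (range 1.42) was at 3.59 at 2 weeks, 4.62 at 4 weeks, 4.69 from 8 to 12 weeks, 5.02 at 14 weeks and 4.75 at 18 weeks. Rpl28l3 (1.36), Rps20l4 (1.34), Rpl15l1 (1.19), Rps19l3 (1.17) and Rpl10al1 (1.16) completed the 8 widest. All of these 8 except Rps27 had their highest value on the 4-week array. In Rpl15l1 the 4-week value of 9.70 stood against 8.51 at 2 weeks and 8.84 to 9.38 later.

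**Figure D3:**
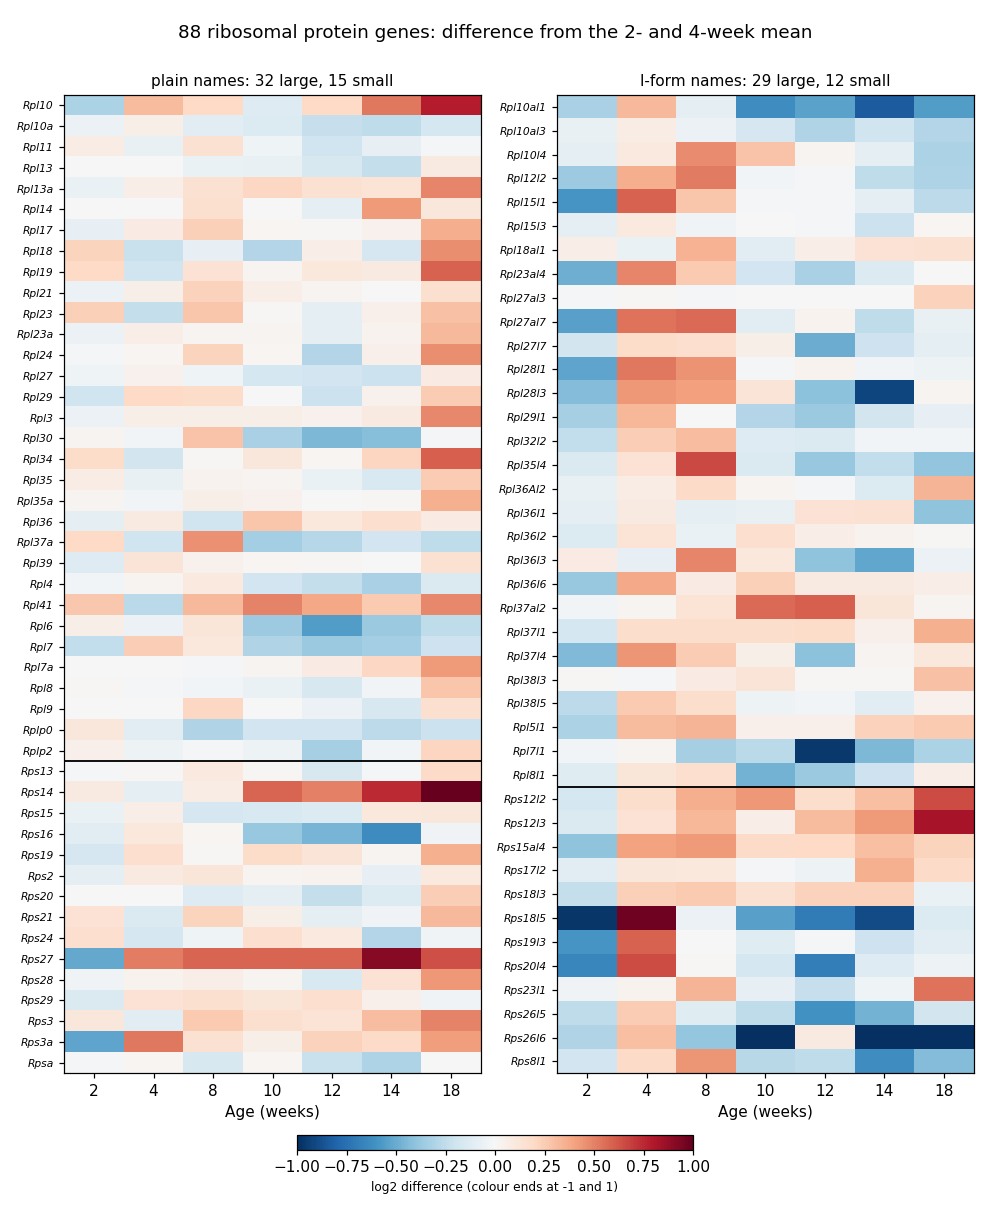
Each of the 88 members (rows, large subunit above and small subunit below the black line) on the 7 arrays (columns, age in weeks), coloured by the log2 difference from the mean of the 2- and 4-week arrays, red higher and blue lower, with colours ending at -1 and 1. The 18-week column is mostly red among plain names (35 of 47 above 0), and the 4-week column is red for 38 of 41 l-form names.

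The age trend fitted a straight line over the 7 ages, whose slope can differ from 0 without a steady course. Rps14 and Rps12l3 rose, both of the small subunit, and no member fell at a limma adjusted p under 0.05. Over all tested genes 3.66% were called higher and 5.03% lower, so the 2 of 88 members called stayed near or under the background. At an unadjusted p under 0.05, 9 members were higher and 2 were lower, against 10.2% and 15.7% of all tested genes. The 9 include Rps27, which passed the floor through the 14-week array alone. The median slope was 0.005 per week for the members and -0.004 for all tested genes, with 51 of 88 members positive against 40.8% of all tested genes. Among plain names 34 of 47 slopes were positive, among l-form names 17 of 41.

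Rps14 encodes a protein of the small subunit platform whose haploinsufficiency is known from a human myelodysplastic syndrome with anaemia. It was at 8.53 at 2 weeks, 8.35 at 4 weeks, 8.51 at 8 weeks, 9.02 at 10 weeks, 8.94 at 12 weeks, 9.18 at 14 weeks and 9.43 at 18 weeks. The 3 youngest lenses lay together and the 4 oldest were all above them. The slope was 0.0665 ± 0.0114 log2 units per week (SE, n = 7; limma adjusted p = 0.0150), a fitted gain of 1.06 from 2 to 18 weeks. Another cluster named Rps14 alone, which can overlap with it in probes, had the same course at a lower signal, with 7.45, 7.32, 7.45, 7.84, 7.80, 8.10 and 8.39. The call ended without the 4-week array (0.0610 per week, adjusted p = 0.0676) and when dim genes were kept (adjusted p = 0.0678, range over all alternatives 0.00758 to 0.0678).

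Rps12l3, named as like Rps12 of the small subunit, was at 6.47, 6.75, 6.94, 6.68, 6.93, 7.04 and 7.44 from 2 to 18 weeks. The 10-week lens interrupted an otherwise higher course. Its slope was 0.0487 ± 0.0110 per week (SE, n = 7; limma adjusted p = 0.0339). It lost its call without the 2-, 4-, 12-, 14- or 18-week array (adjusted p = 0.0611 to 0.168), with array weights (0.0801) and when dim genes were kept (0.120), and its alternatives ranged from 0.00982 to 0.168. With log2 of age it was at an adjusted p of 0.0570, and the 2 members called were Rps14 (0.0470) and Rps27 (0.0314), which passed the floor at 14 weeks alone. Rps12l2, of the same family, had a slope of 0.0372 ± 0.0116 (adjusted p = 0.0908).

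Below the threshold stood plain genes of both subunits. Rpl10 joins the large subunit late in its assembly, near the site of peptide bond formation. It was at 6.79 at 2 weeks, 7.42 at 4 weeks, 7.31 at 8 weeks, 6.97 at 10 weeks, 7.31 at 12 weeks, 7.63 at 14 weeks and 7.89 at 18 weeks (0.0507 ± 0.0167 per week, adjusted p = 0.104). Its other cluster was near the floor, between 4.77 at 12 weeks and 5.36 at 8 weeks, and at 4.98 on the other 5 arrays. With the mean of both clusters the slope of Rpl10 was 0.0223 (adjusted p = 0.293). Rpl3, an early-assembling protein at the catalytic centre, stayed between 9.44 and 9.59 until 14 weeks and was at 9.98 at 18 weeks (0.0240 ± 0.00935, adjusted p = 0.155). Rpl13a (0.0261 ± 0.00830, adjusted p = 0.0947) and Rpl7a (0.0245 ± 0.00826, adjusted p = 0.109), both of the large subunit, and Rps3 (0.0273 ± 0.00948, adjusted p = 0.118), which lines the mRNA entry channel, had similar slopes. With each array centred on its median over the tested genes, 8 members were called higher, namely Rps14, Rps12l3, Rpl7a, Rpl13a, Rpl3, Rps3, Rpl10 and Rps12l2, and with quantile normalization 5 were, namely Rps12l3, Rps14, Rpl10, Rps12l2 and Rps3. The lowest unadjusted p-values among falling members belonged to the 2 l-forms Rpl10al3 (-0.0202 per week, adjusted p = 0.155) and Rpl10al1 (-0.0469 per week, adjusted p = 0.174).

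**Figure D4:**
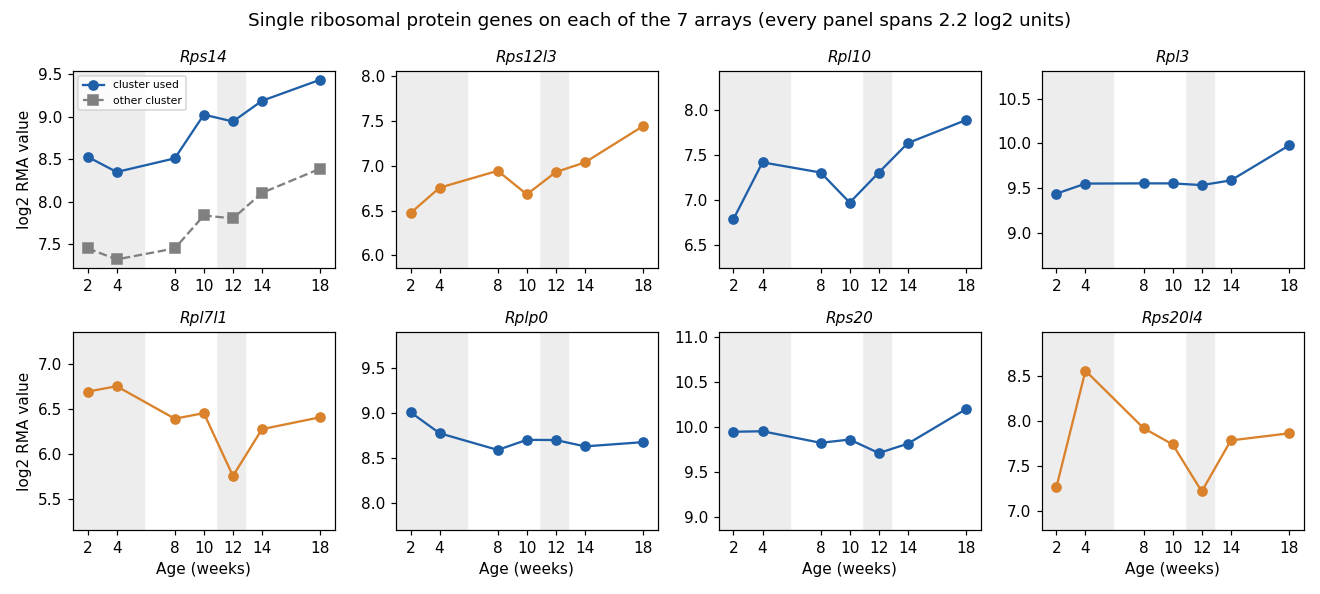
Log2 RMA value (vertical axis, every panel spanning 2.2 log2 units) against age in weeks (horizontal axis) for 8 members, 1 point per array, plain names in blue and l-form names in orange, with the other cluster of Rps14 in grey and alternate stages shaded. Both clusters of Rps14 are higher from 10 weeks on, Rpl7l1 has its low at 12 weeks (5.76), and Rps20l4 has its high at 4 weeks (8.56) where Rps20 is at 9.95.

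Nuclear opacity was compared with no cataracts. No member was called, against 105 of 5168 tested genes called higher (2.03%) and 210 lower (4.06%). At an unadjusted p under 0.05, 6 members were higher and 2 lower, against 9.67% and 15.4% of all tested genes. Both nuclear arrays lay above both no-cataract arrays in 17 members (19.3%; all tested genes 21.6%) and below them in 11 (12.5%; all tested genes 33.1%). The 17 include Rps27, which passed the floor through the 14-week array alone. The 11 include Rps26l6, which passed it at 4 and 12 weeks alone. Both are thus bound up with the floor. The members' median difference was 0.06 and that of all tested genes -0.05. Plain names had a median of 0.12, with 33 of 47 positive, and l-form names -0.07, with 16 of 41 positive. The sign of the members' median rests on single arrays, since it was -0.060 without the 2-week and -0.028 without the 18-week array, and 0.14 without the 4-week and 0.094 without the 14-week array. Without the 4-week array the l-form median was 0.17, with 30 of 41 positive, and without the 18-week array the plain median was 0.0053, with 24 of 47 positive.

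Rps14 had the smallest p, with a mean of 9.31 at nuclear opacity and 8.44 without cataracts, a difference of 0.87 ± 0.20 (SE, n = 2 and 2; limma adjusted p = 0.0690, 0.0350 to 0.244 over the alternatives). Rpl7l1 was at 6.28 and 6.41 against 6.69 and 6.75, without overlap (-0.38 ± 0.10, adjusted p = 0.0852). Rps12l3 differed by 0.62 ± 0.19 (adjusted p = 0.122) and Rps26l6 by -1.41 ± 0.44 (adjusted p = 0.129). Rps26l6 had passed the floor at 4 and 12 weeks alone. Rps3 was at 7.91 and 8.10 against 7.71 and 7.49 (0.40 ± 0.13, adjusted p = 0.131), and Rpl7a at 10.2 and 10.4 against 9.99 and 9.99 (0.31 ± 0.11, adjusted p = 0.154).

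Cortical opacity was compared with no cataracts, and again no member was called, nor was any of the 5168 tested genes (0% called in either direction by limma). At an unadjusted p under 0.05 stood 1 member higher, Rpl10l4, and 1 lower, Rpl7l1, against 3.13% and 12.9% of all tested genes. Of 88 members 60 were positive (68.2%, median 0.06), against 1858 of 5168 tested genes (median -0.07). The median was -0.06 without the 2-week array. Rpl7l1 was at 6.39 and 6.45 at cortical opacity (-0.30 ± 0.10, SE, n = 2 and 2; adjusted p = 0.247), and Rpl10l4 was at 5.71 and 5.53 against 5.14 and 5.34 (0.38 ± 0.14, adjusted p = 0.272). Rps12l2 (0.40), Rps26l6 (-0.97), Rpl37al2 (0.35) and Rplp0 (-0.25) followed with adjusted p of 0.351 to 0.383. Of these, Rps26l6 had passed the floor at 4 and 12 weeks alone and Rpl37al2 at 10 and 12 weeks alone. Leaving out 1 array moved these 4 differences widely, to 0.22 without the 2-week array for Rps12l2, to -1.56 without the 8-week and -0.38 without the 10-week array for Rps26l6, to 0.57 and 0.13 without the same arrays for Rpl37al2, and to -0.13 without the 2-week array for Rplp0.

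The steps from 4 to 8 and from 4 to 10 weeks, between single arrays, have no replicate check. From 4 to 8 weeks 2 members were at least 1.5-fold higher, Rpl41 and Rpl37a, which passed the floor through the 8-week array alone. Another 3 were at least 1.5-fold lower, the l-forms Rps18l5, Rps20l4 and Rps26l6. Rps18l5 passed the floor through the 4-week array alone and Rps26l6 at 4 and 12 weeks alone. Their falls from 4 weeks are thus bound up with the floor. Of all tested genes 1.92% were higher and 3.46% lower by as much. From 4 to 10 weeks 2 were higher, Rpl41 and Rps14, and 10 were lower, all of them l-form, against 1.95% and 8.11% of all tested genes. Rps18l5 and Rps26l6 are again among the 10. Rpl41, the smallest ribosomal protein, was at 11.6 at 2 weeks, 11.1 at 4 weeks, 11.6 at 8 weeks and 11.8 at 10 weeks, lowest at 4 weeks. Its other cluster was at 7.61, 7.86, 7.86 and 8.13 at these ages, with no low value at 4 weeks. Both intervals share the 4-week array, on which 18 l-form members had their highest value.

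Posterior subcapsular opacity, known from 1 array, was set against the 2 arrays of the no-cataract stage. No member and none of the tested genes was called (0%). At an unadjusted p under 0.05 stood 1 member higher and 3 lower, against 3.48% and 18.4% of all tested genes, and the medians were -0.04 for the members (0.13 after median centring) and -0.13 for all tested genes. Rpl7l1 stood out by its value of 5.76 at 12 weeks, against 6.28 to 6.75 on the other arrays (-0.97 ± 0.12, SE, n = 1 and 2; limma adjusted p = 0.0833, 0.0399 to 0.284 over the alternatives). With 1 array at that stage, the spread behind this error comes from the pairs of arrays of the other stages, and the 12-week array is assumed to vary like them. Rpl37al2 was higher (5.25 against 4.62 and 4.68), having passed the floor at 10 and 12 weeks alone. Rpl27l7 (7.26 against 7.58 and 7.94) and Rpl6 (9.53 against 10.1 and 10.0) were lower. Rps26l5 (7.54 against 7.89 and 8.40) and Rpl10al3 (7.51 against 7.74 and 7.88), also lower, completed the 6 members with the smallest p.

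Nuclear opacity was also compared with cortical opacity, where 1 of 5168 genes was called higher (0.0193%), no gene lower, and no member in either direction. At an unadjusted p under 0.05 stood 4 members higher, all with plain names, and 2 lower, both l-form, against 6.73% and 4.41% of all tested genes. The 4 were Rps15 (0.27 ± 0.09, adjusted p = 0.399), Rpl7a (0.31 ± 0.11, adjusted p = 0.399), Rps14 (0.54 ± 0.20, adjusted p = 0.413) and Rpl10 (0.62 ± 0.25, adjusted p = 0.444). The difference of Rps14 was 0.29 without the 8-week array. Rps15, of the small subunit head, was at 9.06 and 9.07 at nuclear and 8.78 and 8.80 at cortical opacity. Rpl10l4 was at 5.14 and 4.92 against 5.71 and 5.53 (-0.59 ± 0.14, SE, n = 2 and 2; limma adjusted p = 0.309), and Rpl36l3 differed by -0.59 ± 0.21 (adjusted p = 0.401). Of all 88 members 42 were positive, with a median of -0.009, against a median of 0.025 for all tested genes. Among all plain names 31 of 47 were positive and among l-form names 11 of 41. Without the 18-week array 17 of 47 plain names were positive and without the 14-week array 39 were, so the plain majority rests on the 18-week array. The differences of this comparison leave out the 2- and 4-week arrays, but their SEs and adjusted p-values also use the spread between these 2 arrays.

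Proteins with known roles beyond the ribosome's core showed small differences, none of them called. Rplp0 holds the stalk of the large subunit that recruits elongation factors. It was at 9.01 at 2 weeks, 8.78 at 4 weeks and 8.59 to 8.70 from 8 weeks on, all older lenses below both young ones (nuclear opacity -0.24 ± 0.12, adjusted p = 0.266). Its partner Rplp2 was at 9.28 at 12 weeks and 9.56 to 9.83 on the other arrays (age trend 0.0044 ± 0.0120, adjusted p = 0.856). Rpsa, also known as the laminin receptor precursor, stayed within 11.4 to 11.8 (age trend -0.0081 ± 0.0101, adjusted p = 0.660). Rpl11, which binds 5S rRNA and Mdm2, stayed within 8.39 to 8.74 (adjusted p = 0.667). Rps6 was at 3.75 to 4.24 and Rpl5 at no more than 3.74, both under the floor, so that no statement on them can be made.

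Paralogue pairs could be compared only in part. Rpl3l, the muscle paralogue of Rpl3, was at 2.22 to 2.92 and Rpl22l1 at 2.36 to 2.67, both under the floor on every array. Rpl7 was at 7.47, 7.96, 7.82, 7.42, 7.35, 7.38 and 7.51 from 2 to 18 weeks, high at 4 and 8 weeks (nuclear opacity -0.27 ± 0.21, adjusted p = 0.479). Rpl7l1 had its low at 12 weeks, where Rpl7 was also at its lowest. Rpl39, at the exit tunnel, was at 10.2 at 2 weeks and 10.3 to 10.5 afterwards (age trend adjusted p = 0.584). A total of 6 of its clusters carried the name Rpl39 alone, and 19 members had several clusters in all. Of their 28 further clusters above the floor, 20 had the same sign as the one used for nuclear opacity against no cataracts and 8 the opposite, with a median distance of 0.04 and a largest of 0.66. Clusters of a gene can overlap in their probes, and 2 of Rpl39 had the same values on all 7 arrays. These counts are therefore not of independent measurements.

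The rest of the translation machinery was measured from lists of known genes. Fau, a ubiquitin-like fusion that yields the small subunit protein eS30, fell with age. It was at 8.51, 8.54, 8.49, 8.00, 7.78, 7.54 and 7.73 from 2 to 18 weeks (-0.0669 ± 0.0139 per week, limma adjusted p = 0.0250), lower on each array from 10 weeks on than before. The call ended without the 2-, 4-, 12- or 14-week array and when dim genes were kept (adjusted p up to 0.103). Rack1, a scaffold on the small subunit, had a slope of -0.0130 ± 0.0140 (adjusted p = 0.604). Of 5 tested elongation factors none passed in any comparison. Eef1a1, which brings aminoacyl-tRNA, had the smallest p (nuclear opacity 0.38 ± 0.12, adjusted p = 0.130).

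The next calls are at nuclear opacity against no cataracts, where 2.03% of all tested genes were called higher and 4.06% lower. They rest on every array but that of 12 weeks: leaving out any 1 of the other 6 ended each of the 11 calls of these lists (adjusted p up to 0.232), as did keeping dim genes, and over all tested genes the 315 calls became 0 without the 2-, 4-, 14- or 18-week array and 23 without the 8- or 10-week array. Of 26 tested initiation factors, 1 rose and 4 fell, with a median of 0.00. With age 3 rose (Eif4b, Eif3f and Eif5b) and 3 fell (Eif4e, Eif4a1 and Eif3d), against 3.66% and 5.03% of all tested genes. Eif4b, a cofactor of the helicase, rose (0.77 ± 0.11, limma adjusted p = 0.0278). The cap-binding protein Eif4e (-1.76 ± 0.30, adjusted p = 0.0394), the helicase Eif4a1 (-0.98 ± 0.18, adjusted p = 0.0430) and the scaffold Eif4g1 (-0.75 ± 0.11, adjusted p = 0.0283), which make up the cap-binding complex eIF4F, fell, as did Eif3d (-0.63, adjusted p = 0.0464). The age trend of Eif4b was called without each array in turn (adjusted p up to 0.0416), whereas each of the other 5 age calls ended without at least 1 array, Eif4e without the 2-week array (0.0684).

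Of 20 tested ribosome biogenesis genes 1 rose at nuclear opacity and none fell, with a median of -0.19 and 4 of 20 positive. The one was Ncl, nucleolin, at 8.81, 9.06, 9.58, 9.71, 9.79, 9.90 and 10.2 from 2 to 18 weeks (1.11 ± 0.15, adjusted p = 0.0264). It was higher at each age than at the one before, and its age trend (0.0845 per week, adjusted p = 0.00329) was called without each array in turn (up to 0.0336). Its call at nuclear opacity also ended with the mean of its clusters. Nop58, a core protein of box C/D small nucleolar particles, differed by -0.65 ± 0.14 (adjusted p = 0.0578). Of 6 tested genes of RNA polymerase I and 5S RNA, Taf1d rose (0.66 ± 0.12, adjusted p = 0.0464). Of 14 genes that control TOP mRNAs and mTORC1, Pdcd4, an inhibitor of Eif4a, rose (0.69 ± 0.12, adjusted p = 0.0400) and Rps6kb2, an S6 kinase, fell (-1.15 ± 0.15, adjusted p = 0.0248). Of 45 tested mitochondrial ribosomal proteins 14 were positive at nuclear opacity, with a median of -0.12, and of these genes Mrps18a rose (0.72 ± 0.13, adjusted p = 0.0416) and Mrpl55 fell (-0.95 ± 0.16, adjusted p = 0.0380).

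Plain members with and without a TOP run at the start were set side by side. The 15 with a run, of 5 to 12 bases, had a median difference of 0.20 between nuclear opacity and no cataracts, within -0.24 to 0.87, and the 24 without one a median of 0.13, within -0.33 to 0.40. The ranges overlapped over most of their length. Without Rps27, which passed the floor through the 14-week array alone, the 14 others with a run had a median of 0.19. Of the plain genes printed above with a run, Rps14 was at 0.87, Rpl10 at 0.66 (-0.0012 in its other cluster) and Rplp0 at -0.24. Rps27 had means of 4.88 at nuclear opacity and 4.11 without cataracts, Rps15 9.06 and 8.95, and Rpl10a 9.11 and 9.33.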

How the data were processed

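Lens RNA of 7 ages was labelled with biotin and hybridised to GeneChip Rat Gene 2.0 ST arrays, 1 array per age. The values are log2 RMA signals per transcript cluster, made by the authors from the arrays and deposited as a table, and were used without further scaling. The authors normalized in R, and the package used is not given in the sources used here. A signal includes background, which compresses differences of dim genes, and the small number of arrays limits the precision. Of 36685 clusters, 18511 carried 1 symbol, 575 several and 17599 none. Symbols were updated through Entrez identifiers with RefSeq (GRCr8) for 18394 clusters. The cluster of highest mean stood for a gene (18166 genes), and the 5168 genes with a log2 signal of 5 or higher on any array entered the tests.

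Stages were taken from the labels. All 7 arrays were fitted in R 4.3.3 with limma 3.58.1, with 1 mean per stage, and the age trend with a line over age in weeks. P-values were adjusted by Benjamini-Hochberg over all tested genes, with a threshold of 0.05. The script was tested on simulated data. Medians by age and steps between single arrays had no test. Alternatives covered the floor, clusters, scaling, prior, array weights, arrays left out, compared stages only and the age scale. Restricting the members to plain names was added after seeing the data. Members, gene lists and the alternatives were chosen with earlier results of these data known, and the list of standard proteins and the division by name form were made after the values were seen. The genes named in a comparison were members that passed (at most 6 in each direction) or, with fewer than 4 passing, the 6 with the smallest p, with the 8 of widest range, Rplp0, Rplp1, Rplp2, Rpsa, Rps6, Rpl5, Rpl11, Rps27a and paralogue pairs. Plain and l-form relatives, members past 1.5-fold, and members called under another scaling were named after their values were seen. Figures were drawn with matplotlib 3.10.9.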

Additional observations from a re-analysis of the deposited data

How the results depend on the processing

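No paired analysis was possible because the labels give no replicate numbers and each age has 1 array. Of 79 counts of called members under the alternatives, 63 stayed as they were. Most of these were counts of 0 in a stage comparison that remained 0, so they say little about stability. Outside nuclear opacity against no cataracts, few or none of all tested genes were called in these comparisons. With log2 of age the count of the age trend stayed, but Rps27 stood in place of Rps12l3. For posterior subcapsular opacity 1 member, Rpl7l1, was called lower with a floor of 6 and with a trended and robust prior. For nuclear opacity against no cataracts 1 member, Rps14, was called higher with a floor of 6, median centring, quantile normalization or the trended and robust prior. The 2 members of the age trend became 8 with median centring, 5 with quantile normalization, 1 with array weights, 1 with plain names only and 0 with no filter on low values. Leaving out 1 array gave 0 to 2 called members in the age trend, 0 without the 4-week array and 1 without the 2-, 12-, 14- or 18-week array, and 0 in each of the other comparisons. The median member difference without 1 array ranged from -0.058 to 0.14 for cortical opacity, from -0.16 to -0.0013 for posterior subcapsular opacity, from -0.060 to 0.14 for nuclear opacity and from -0.09 to 0.06 for nuclear against cortical opacity. The lowest value of the first 3 was that without the 2-week array. Median centring moved it to 0.17 for cortical and 0.13 for posterior subcapsular opacity. Of the medians by age, 5 moved by at least the pooled SD given above (0.09 large, 0.14 small), a limit built from the same arrays. With median centring they moved to 0.14, 0.12 and 0.083 for the large subunit at 10, 12 and 14 weeks and 0.15 for the small subunit at 12 weeks. With no filter the small subunit moved to -0.0087 at 18 weeks. Shifts under the limit are not listed, such as that of the small subunit at 10 weeks from 0.03 to 0.17 with median centring.

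The single-array steps were counted again with a lower fold and with 2-fold in place of 1.5-fold. From 4 to 8 weeks the 2 higher members became 1 with a floor of 6 or the mean of all clusters, 4 with no filter, 10 at the lower fold and 0 at 2-fold, and the 3 lower ones 1 with a floor of 6, 9 at the lower fold and 1 at 2-fold. From 4 to 10 weeks the 2 higher became 5 with no filter, 1 with the mean of all clusters, 4 at the lower fold and 0 at 2-fold, and the 10 lower became 16 with no filter, 5 with quantile normalization or median centring, 20 at the lower fold and 2 at 2-fold. Of the 6 members with the smallest p in each comparison, none changed sign under any alternative. These members were picked by their p in the same data. Several alternatives, such as another prior or leaving out an array of another stage, keep a stage difference as it is. The unchanged sign is therefore no separate check. The causes of the changed counts were not tested. The l-form median from 2 to 4 weeks was 0.21 to 0.43 under the 5 alternatives of filter, cluster and scaling, and the plain median -0.04 to 0.08.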

Other observations

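Clusters outside the naming rule held further ribosomal protein signal. A total of 28 clusters above the floor carried several symbols of which at least 1 was a ribosomal protein, and 16 carried a single symbol of another form (ps names, copies of the stalk proteins and Rpl31l10). Among the first kind 24 of 28 were higher at nuclear opacity than without cataracts, with a median of 0.15 (log2), and 25 of 28 were higher at 18 than at 4 weeks, with a median of 0.26. Among the second kind 11 of 16 were higher at nuclear opacity, with a median of 0.08, 11 of 16 were higher at 4 than at 2 weeks, with a median of 0.24, and 8 of 16 were higher at 18 than at 4 weeks, with a median of 0.0019. Of all tested genes, 2348 of 5168 were higher at 18 than at 4 weeks (median 0.00) and 2181 were higher at 4 than at 2 weeks (median -0.01). Their median at nuclear opacity was -0.05. Some genes, such as Rpl38, Rps7, Rps18 and Rps25, stand behind more than 1 cluster, so the counts are not of separate genes. The clusters can overlap in their probes and are given as values without a test.

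A cluster shared by Rps18, Rps18l1 and Rps18l5 was at 8.92, 9.30, 9.06, 9.34, 9.30, 9.53 and 9.57 from 2 to 18 weeks, highest at 14 and 18 weeks. A cluster shared by Rps25 and Rps25l3 was at 9.62, 9.70, 10.0, 9.40, 9.20, 9.38 and 9.63, high at 8 weeks and low at 12 weeks. The cluster of Rps27a-ps1 with the higher signal stayed within 10.7 to 10.9, the narrowest course of these 3.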
